A study of Mus musculus with 6 samples.

Results

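The dual-specificity phosphatases *Dusp1*, *Dusp2*, *Dusp4*, *Dusp5* and *Dusp6*, the Sprouty genes *Spry1*, *Spry2* and *Spry4*, and the Sprouty-related genes *Spred1* and *Spred2* were followed in Raw264.7 macrophages with and without knockdown of *Etv5*. These 10 genes were selected by symbol as MAP kinase phosphatases and Sprouty or Spred inhibitors, and each of the 10 had a row among the 24786 gene symbols measured. Of the 10 genes, 8 passed the filter on low values that was applied before testing (3 or more of the 6 libraries with an RPKM of 1 or higher).

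ERK is the last kinase of the Ras, Raf, MEK and ERK cascade, through which growth factor and Toll-like receptors reach transcription in macrophages. Cells answer ERK activity by transcribing its own inhibitors. The Dusp proteins remove phosphate from the threonine and tyrosine that activate MAP kinases. Sprouty and Spred proteins act further up, at the level of the receptor, Ras and Raf, and Spred proteins bring the Ras inhibitor neurofibromin to the membrane. *Etv5* and its relatives *Etv1* and *Etv4* encode ETS transcription factors of the PEA3 subfamily, which are themselves known targets of receptor and ERK signaling.

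Polyadenylated RNA, as the labels give it, was sequenced from Raw264.7 cells, a mouse macrophage line established from an Abelson leukemia virus tumor, for which the labels give the strain C57BL/6. The study's methods give no strain for this line, and the strain label was not checked here. Cells infected with a lentivirus carrying a control shRNA (sh-NC, 3 libraries) were compared with cells infected with one carrying an shRNA against *Etv5* (sh-*Etv5*, 3 libraries), with Lipofectamine 3000 present at infection in both groups, to find the genes that respond to a loss of *Etv5*. The labels state that expression was measured 24 or 48 h after infection. The study's methods describe puromycin selection of the infected cells, which both groups share, and its results state that the sequenced cells were stably transfected. Neither source names the shRNA that was sequenced or ties the 3 libraries of a group to separate cultures. The p-values therefore set the difference between the groups against the variation among libraries of a group, which may be technical only. Below, sh-NC libraries are also called control and sh-*Etv5* libraries knockdown libraries, and values are listed in the order of the replicate numbers in the labels.

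RPKM values (reads scaled by gene length and by the number of mapped reads) summed to between 320462 and 340257 per library. The number of reads behind them is unknown, so no interval for counting error was computed. Pearson correlations of log2(RPKM + 1) across tested genes were 0.9957 to 0.9973 within a group and 0.9134 to 0.915 between groups, with genes that are not independent replicates. Of the 8 macrophage markers examined, 7 were tested (3 rose and 4 fell) and *Mertk* was near 0, with a highest value of 0.0653 RPKM. The summed level of the 8 markers was 3840 to 3940 RPKM in sh-NC and 2830 to 2910 RPKM in knockdown libraries. Most of this sum was *Lyz2*, with a mean of 2834 RPKM in sh-NC and 2041 RPKM in sh-*Etv5* libraries. Among the 3 that rose, *Itgam* went from a mean of 33.8 to 127.2 RPKM and *Adgre1* from 2.60 to 11.3 RPKM. Among markers of other cell types, those of fibroblasts, T cells, B cells and epithelial cells summed to at most 0.367 RPKM in any library. The neutrophil markers summed to 0.123 to 0.491 RPKM in sh-NC and 15.5 to 19.7 RPKM in sh-*Etv5* libraries. All of that was *S100a8*, with *S100a9*, *Ly6g* and *Elane* listed at 0 in all 6 libraries. The part of these shifts in the results that follow was not tested.

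The targeted gene was lower in all 3 sh-*Etv5* libraries. *Etv5* had 9.18, 9.89 and 9.39 RPKM in control and 5.19, 4.91 and 5.28 RPKM in knockdown libraries. The groups did not overlap, and the mean in sh-*Etv5* cells was 0.540 times that in sh-NC cells (log2 fold change -0.78, adjusted p = 2.74e-07 by limma). The pseudogene *Gm4798* shares 24.5% of the 50-base sequences of *Etv5* transcripts, and reads from that share cannot be assigned to either.

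Each of the 5 phosphatase genes rose in sh-*Etv5* cells, and so did *Spry2*, while *Spred1* fell and *Spred2* was not called. Thus, of the 10 genes, 6 were higher, 1 was lower and 1 was not called, and 2 (*Spry1* and *Spry4*) were below the filter. Over all 10738 tested genes, 33.3% were called higher and 41.0% lower, 74.3% in all, at a limma adjusted p-value under 0.05. *Dusp1*, *Dusp2*, *Dusp4*, *Dusp5* and *Dusp6* also had a log2 fold change above 1, a size that 6.23% of all tested genes reached with a call in that direction. Control and knockdown libraries were fully separated in 7 of the 8 tested genes, with the 6 that rose on the high side, against 76.4% of all tested genes in either direction and 34.3% on the high side. *Spry2*, 1 of these 6, passed the filter only through the sh-*Etv5* libraries, so its direction and separation were set by the filter. In bulk RNA, a change in the share of cells that express a gene and a change in the amount of RNA per cell cannot be told apart. Fold changes were computed on log2(RPKM + 1), a scale that understates the change of genes with a low RPKM, and the ratio of mean RPKM is given beside them.

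**Figure D1:**
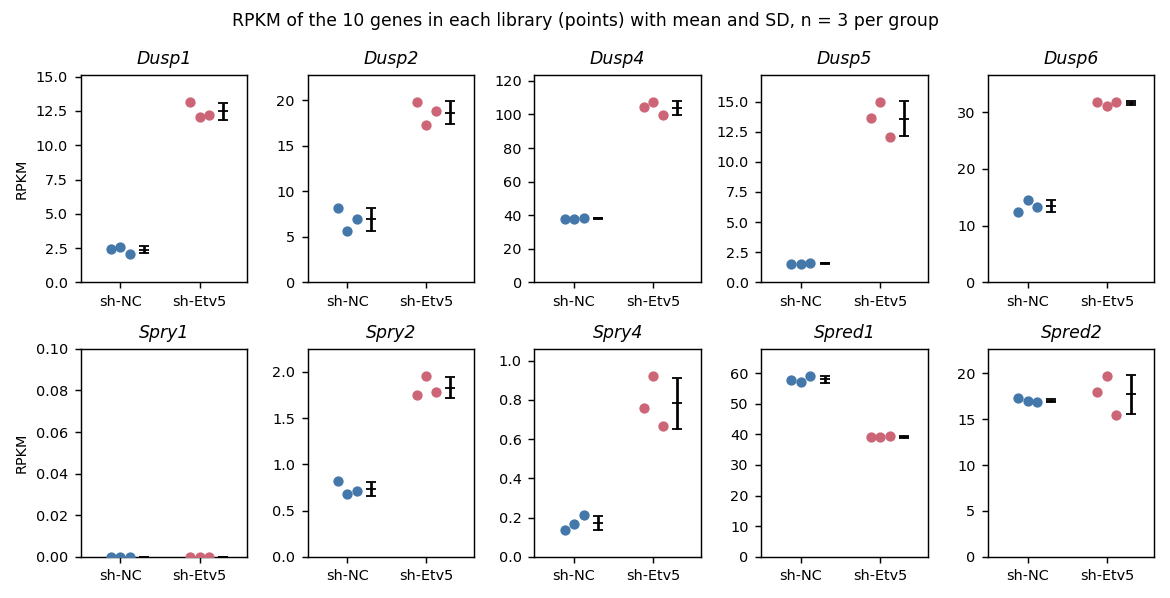
RPKM (vertical axes, linear and different for each gene) of the 10 genes in the 3 sh-NC libraries (blue) and the 3 sh-*Etv5* libraries (red), with the mean and SD beside the points. The sh-*Etv5* points of *Dusp4* sit between 99.5 and 107.6 RPKM and those of *Spred1* between 38.9 and 39.3 RPKM, on opposite sides of their sh-NC points, and *Spry1* is at 0 in all 6 libraries.

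*Dusp5* had the largest rise of the 10 genes. It encodes a nuclear phosphatase that acts on ERK. The gene lies at chr19:53529109-53542431 (plus strand) in the GRCm38 annotation of GENCODE, with 4 exons in its principal transcript. *Dusp5* had 1.55, 1.56 and 1.65 RPKM in control and 13.6, 15.0 and 12.1 RPKM in knockdown libraries. The groups did not overlap, and the lowest sh-*Etv5* library was 7.34 times the highest sh-NC library. The mean went from 1.58 ± 0.0557 to 13.6 ± 1.45 RPKM (SD, n = 3), a ratio of 8.56. On the log2 scale this was a fold change of 2.49 (standard error, SE, of 0.0762, adjusted p = 2.68e-10 by limma), which was above that of 99.1% of all tested genes. The annotation places *AC137853.2* on the opposite strand over exons of *Dusp5*, and 20.5% of the 50-base sequences of *Dusp5* transcripts lie in both. The library kit named in the study's methods, the Illumina TruSeq RNA kit, does not mark strand, so reads from a gene and its antisense partner cannot be told apart.

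*Dusp1*, whose nuclear product acts on p38 and JNK as well as ERK and is induced early in activated macrophages, came next. Its 6 annotated transcripts together span chr17:26505590-26562128 (minus strand), with 4 exons in the principal transcript. The RefSeq start site used below lies within this span. *Dusp1* had 2.47, 2.62 and 2.09 RPKM in control and 13.2, 12.03 and 12.2 RPKM in knockdown libraries. Here too the groups were far apart, with the lowest sh-*Etv5* library at 4.59 times the highest sh-NC library. The mean rose from 2.39 ± 0.274 to 12.5 ± 0.613 RPKM (SD, n = 3), a ratio of 5.22, and the log2 fold change was 1.99 (SE 0.0720, adjusted p = 9.59e-10 by limma). Exons of *Ergic1* overlap an annotated transcript of *Dusp1* on the opposite strand. *Ergic1*, which encodes a protein of the secretory pathway, moved the other way, from 36.1, 35.9 and 35.3 RPKM in the sh-NC libraries to 29.4, 28.8 and 29.0 RPKM in the knockdown libraries.

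The stretches of 250 bases upstream of the RefSeq start sites of the genes with the largest rises, *Dusp5* and *Dusp1*, are shown in the direction of transcription, with motif matches in capitals, beside those of *Dusp6* and *Spred1*, which moved less and in which no searched motif was found (RefSeq, GRCm38.p6). The *Dusp5* stretch is chr19:53528895-53529144 (plus strand), that of *Dusp1* is chr17:26508473-26508722 (minus strand), that of *Dusp6* is chr10:99262981-99263230 (plus strand) and that of *Spred1* is chr2:117120821-117121070 (plus strand).
Dusp5: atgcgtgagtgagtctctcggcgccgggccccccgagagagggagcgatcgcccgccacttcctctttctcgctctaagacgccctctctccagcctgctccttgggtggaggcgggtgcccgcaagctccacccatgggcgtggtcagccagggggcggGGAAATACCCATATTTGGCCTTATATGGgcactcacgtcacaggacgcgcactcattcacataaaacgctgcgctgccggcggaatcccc
Dusp1: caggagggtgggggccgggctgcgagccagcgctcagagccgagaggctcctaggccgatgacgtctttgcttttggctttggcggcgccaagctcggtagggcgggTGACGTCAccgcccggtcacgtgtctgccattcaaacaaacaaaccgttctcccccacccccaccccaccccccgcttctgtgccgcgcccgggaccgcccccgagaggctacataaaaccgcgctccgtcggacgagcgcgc
Dusp6: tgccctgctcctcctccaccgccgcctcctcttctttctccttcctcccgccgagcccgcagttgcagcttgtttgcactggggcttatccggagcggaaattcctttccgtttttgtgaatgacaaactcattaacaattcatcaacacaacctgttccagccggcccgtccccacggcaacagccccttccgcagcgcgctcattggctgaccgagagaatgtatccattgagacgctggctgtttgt
Spred1: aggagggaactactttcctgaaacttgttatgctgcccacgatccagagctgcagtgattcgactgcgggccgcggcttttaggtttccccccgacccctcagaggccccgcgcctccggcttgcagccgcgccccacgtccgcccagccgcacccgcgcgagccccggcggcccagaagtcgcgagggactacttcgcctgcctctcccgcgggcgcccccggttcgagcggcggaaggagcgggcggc

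In *Dusp5*, the capitals mark a κB match at -90 to -81 (where -1 is the base before the start site), then 2 CArG boxes, the core of the serum response element, at -82 to -73 and at -72 to -63. The κB match and the first of these CArG boxes overlap. In *Dusp1*, the capitals mark a cyclic AMP response element at -143 to -136. The search covered windows of 300 bases, which add 50 bases past the start, on both strands, with ETS as CCGGAAG, AP-1 as TGANTCA, the cyclic AMP response element as TGACGTCA, κB as GGG and TTTCC separated by any 2 bases, and the CArG box as CC and GG separated by 6 bases that are each A or T. Windows were found for 8 of the 10 genes (not for *Dusp4* and *Spry4*). The ETS motif was found in 0 of these 8 and in 8.86% of all 32851 windows, and the AP-1 motif in 0 of the 8 and in 7.81% of all windows. The cyclic AMP response element was found in 1 of the 8 and in 1.79% of all windows, and the κB motif and the CArG box each in 1 of the 8 and in 1.63% of all windows. No searched motif was in the windows of *Dusp2*, *Dusp6* and *Spry2*, which rose, or of *Spred1*, *Spred2* and *Spry1*, which did not. The GC content of the 8 windows ran from 57.0% to 72.3%, against a median of 52.7% over all windows. A match is a description of the sequence and does not show a bound site, and no match says only that these letters are not in this window.

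*Dusp4*, another nuclear phosphatase of ERK and JNK, was the most abundant of the 10 transcripts in sh-*Etv5* cells. It lies at chr8:34807297-34819894 (plus strand), with 4 exons. *Dusp4* had 37.9, 38 and 38.6 RPKM in control and 104.6, 107.6 and 99.5 RPKM in knockdown libraries. Its libraries varied little in the control, with an SD of 0.374 RPKM around 38.2 RPKM (n = 3), and the mean rose to 103.9 ± 4.09 RPKM (SD, n = 3). The ratio was 2.72 and the log2 fold change 1.42 (SE 0.0377, adjusted p = 8.81e-11 by limma). In RPKM this was the largest gain of the group, 65.8 RPKM, although *Dusp5* and *Dusp1* had the larger ratios.

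*Dusp2* encodes a nuclear phosphatase found mainly in blood cells. It lies at chr2:127336159-127338376 (plus strand), with 4 exons. *Dusp2* had 8.21, 5.63 and 6.92 RPKM in control and 19.9, 17.3 and 18.8 RPKM in knockdown libraries. Of the 5 phosphatase genes it varied most between control libraries, relative to its mean, but the groups stayed apart by 2.11 times between the nearest libraries. Means were 6.92 ± 1.29 and 18.7 ± 1.28 RPKM (SD, n = 3), and *Dusp2* rose by a log2 fold change of 1.32 (SE 0.101, adjusted p = 4e-07 by limma).

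*Dusp6* encodes a cytoplasmic phosphatase that is selective for ERK and is widely read as a marker of ERK feedback. It lies at chr10:99263231-99267489 (plus strand), with 3 exons. *Dusp6* had 12.4, 14.5 and 13.3 RPKM in control and 31.9, 31.2 and 31.7 RPKM in knockdown libraries. The groups did not overlap, and the mean rose from 13.4 ± 1.05 to 31.6 ± 0.368 RPKM (SD, n = 3), a ratio of 2.36. Its log2 fold change of 1.18 (SE 0.0537, adjusted p = 5.8e-09 by limma) was the smallest of the 5 phosphatase genes.

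The rises were unequal. The 95% confidence interval of the log2 fold change of *Dusp5* (2.32 to 2.66) lay above that of *Dusp1* (1.83 to 2.15), which in turn lay above those of the remaining genes. The intervals of *Dusp4* (1.34 to 1.504), *Dusp2* (1.10 to 1.55) and *Dusp6* (1.06 to 1.30) followed. That of *Dusp4* lay above that of *Dusp6*, while that of *Dusp2* overlapped both, so the place of *Dusp2* was not resolved. The interval of *Dusp6* lay above that of *Spry2* (0.53 to 0.88). On the scale of ratios the order is not the same, because a pseudocount of 1 compresses the change of *Spry2*. Its ratio of 2.49 lay between those of *Dusp6* and *Dusp2*.

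**Figure D2:**
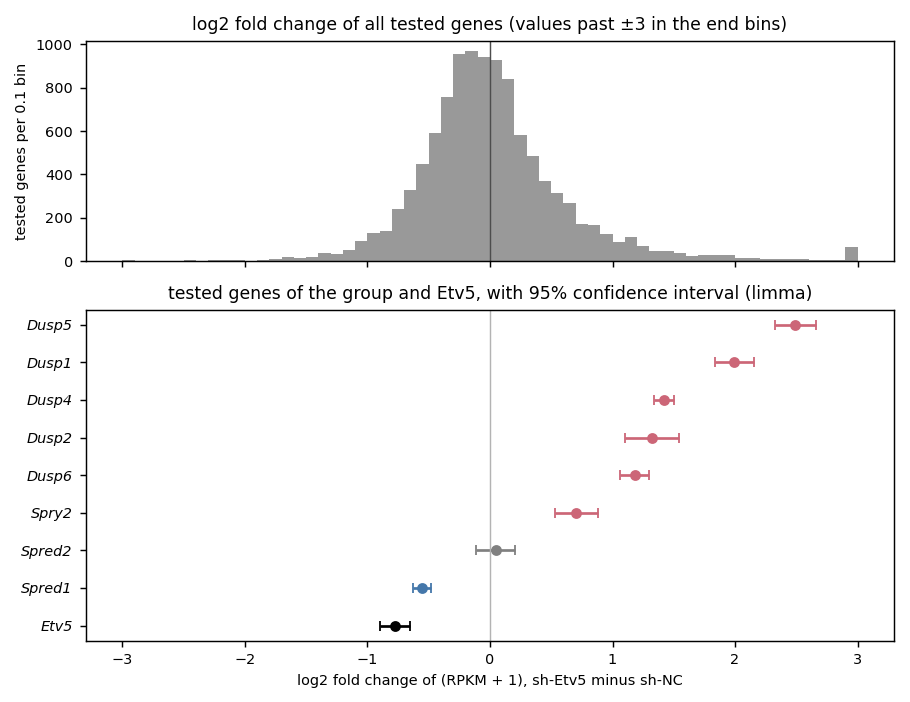
Upper panel, number of tested genes (vertical axis) by log2 fold change between sh-*Etv5* and sh-NC in bins of 0.1, with values past 3 in either direction in the end bins. Lower panel, log2 fold change (points) and 95% confidence interval (bars) of the 8 tested genes and of *Etv5* (black), called higher in red, called lower in blue and not called in grey. *Dusp5* lies at 2.49 and *Spred1* at -0.55, and the interval of *Spred2* spans 0.

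Added up, the 5 phosphatase transcripts went from 62.5 ± 0.125 to 180.2 ± 5.02 RPKM (SD, n = 3). *Dusp4* made up most of the sum in both groups, at 60.6% to 61.7% in the sh-NC libraries and at 57.1% to 58.8% in the sh-*Etv5* libraries. The share of *Dusp5* went from 2.54% ± 0.0872 to 7.52% ± 0.630, and that of *Dusp1* from 3.83% ± 0.441 to 6.93% ± 0.323 (SD, n = 3). The share of *Dusp6* went from 21.5% ± 1.72 to 17.5% ± 0.611 (SD, n = 3), and that of *Dusp2* overlapped between the groups (9.03% to 13.1% and 9.45% to 10.8%). Within each library, *Dusp1* was 1.27 to 1.68 times *Dusp5* in sh-NC cells and 0.802 to 1.01 times *Dusp5* in sh-*Etv5* cells. These shares and ratios are descriptions with no test.

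**Figure D3:**
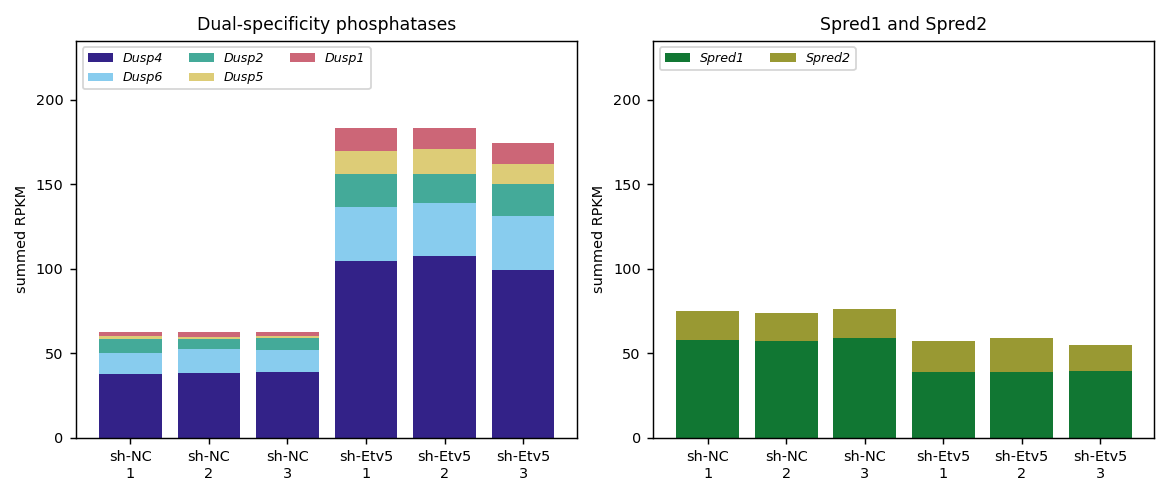
Summed RPKM (vertical axis) in each of the 6 libraries (horizontal axis) of the 5 phosphatase transcripts (left) and of *Spred1* and *Spred2* (right), with a color for each gene. The phosphatase bars stand at 62.3 to 62.5 RPKM in control and at 174.4 to 183.1 RPKM in knockdown libraries, while the *Spred1* and *Spred2* bars stand at 74.1 to 75.9 and at 54.7 to 58.8 RPKM.

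The Sprouty transcripts were scarce in both groups. Sprouty proteins hold back Ras and Raf activation below receptor tyrosine kinases. *Spry2* lies at chr14:105891947-105896819 (minus strand), with 2 exons. *Spry2* had 0.820, 0.681 and 0.707 RPKM in control and 1.75, 1.96 and 1.78 RPKM in knockdown libraries. The groups did not overlap, and the mean went from 0.736 ± 0.0738 to 1.83 ± 0.111 RPKM (SD, n = 3). On the log2 scale *Spry2* rose by 0.71 (SE 0.0804, adjusted p = 1.14e-05 by limma), and by 1.31 with a pseudocount of 0.01. *Spry2* reached the filter only through the sh-*Etv5* libraries, and a gene that passes in this way has to be higher there.

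*Spry4* stayed below 1 RPKM in all 6 libraries and was therefore outside the test. *Spry4* had 0.137, 0.168 and 0.211 RPKM in control and 0.758, 0.922 and 0.667 RPKM in knockdown libraries. The groups did not overlap, and the mean was 0.172 ± 0.0373 against 0.782 ± 0.129 RPKM (SD, n = 3), a ratio of 4.55. With no filter on low values, *Spry4* was called higher (log2 fold change 0.60, adjusted p = 0.000522 by limma), as were 23.3% of the 17831 genes in that fit. With 0.1 in place of 1 as the pseudocount, this log2 fold change came to 1.70. *Spry1* was listed at 0 RPKM in all 6 libraries, and 21.8% of the 50-base sequences of its transcripts lie in *Gm42922* on the opposite strand. The summed Sprouty level, at 0.85 to 0.956 RPKM in sh-NC and 2.45 to 2.88 RPKM in sh-*Etv5* libraries, was small beside the summed level of the phosphatase transcripts in both groups.

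*Spred1* went against the rest. It was the most abundant of the 10 transcripts in sh-NC cells and the only one of the 8 tested that fell. It lies at chr2:117121374-117182279 (plus strand), with 7 exons. *Spred1* had 57.6, 57.1 and 59.0 RPKM in control and 38.9, 39.1 and 39.3 RPKM in knockdown libraries. The groups were well apart and the sh-*Etv5* libraries nearly equal, with means of 57.9 ± 1.02 and 39.1 ± 0.187 RPKM (SD, n = 3) and a ratio of 0.675. The log2 fold change was -0.55 (95% confidence interval -0.63 to -0.48, adjusted p = 6.68e-08 by limma).

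*Spred2*, its closest relative among the 10 genes, was not called. It lies at chr11:19924375-20024026 (plus strand), with 6 exons. *Spred2* had 17.3, 17.0 and 16.9 RPKM in control and 18, 19.7 and 15.4 RPKM in knockdown libraries. The sh-*Etv5* libraries lay on both sides of the sh-NC libraries, with means of 17.1 ± 0.212 and 17.7 ± 2.17 RPKM (SD, n = 3). The log2 fold change was 0.05 (95% confidence interval -0.11 to 0.21, adjusted p = 0.578 by limma), and an exact permutation test of 3 against 3 libraries, which cannot give less than 0.1, gave p = 0.7 (two-sided). Its value rested on single libraries. Without sh-*Etv5* replicate 3 it was 0.14 (adjusted p = 0.0312 by limma, the lowest among its alternatives, which reached 0.895), and leaving out sh-*Etv5* replicate 2 turned it to -0.031. Within each library, *Spred1* was 3.34 to 3.50 times *Spred2* in sh-NC cells and 1.98 to 2.55 times *Spred2* in sh-*Etv5* cells. Put side by side, the summed phosphatase level was 0.824 to 0.841 times the summed level of *Spred1* and *Spred2* in sh-NC libraries and 3.12 to 3.21 times that level in sh-*Etv5* libraries.

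RPKM is scaled by gene length, so that the members can be ordered by level. In sh-NC cells the order was *Spred1*, *Dusp4*, *Spred2*, *Dusp6*, *Dusp2*, *Dusp1*, *Dusp5*, *Spry2*, *Spry4* and *Spry1*, and no neighbors in this order overlapped between libraries. In sh-*Etv5* cells *Dusp4* came first, ahead of *Spred1*, *Dusp6*, *Dusp2*, *Spred2*, *Dusp5*, *Dusp1*, *Spry2*, *Spry4* and *Spry1*. There, *Dusp2* (17.3 to 19.9 RPKM) and *Spred2* (15.4 to 19.7 RPKM) overlapped, and so did *Dusp5* (12.1 to 15.0 RPKM) and *Dusp1* (12.03 to 13.2 RPKM).

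Other dual-specificity phosphatases moved in both directions. Of a list of 9, 6 were tested, of which 3 were higher, 2 were lower and 1 was not called, with a median log2 fold change of 0.49 against -0.05 over all tested genes. Of all tested genes, 33.3% were called higher and 41.0% lower. *Dusp14* (1.69), *Dusp10* (1.10) and *Dusp16* (0.91) rose, and the latter pair encode phosphatases of p38 and JNK. *Dusp10* went from 0.717 ± 0.0465 to 2.68 ± 0.182 RPKM and *Dusp16* from 6.60 ± 0.477 to 13.2 ± 0.375 RPKM (SD, n = 3). Of the 6, 2 passed the filter through 1 group only. These were *Dusp10* and *Dusp14*, both among the genes that rose, which reached 1 RPKM in all libraries of sh-*Etv5* but not in all of sh-NC. *Dusp3* (-0.19) and *Dusp22* (-0.23) fell, the latter with a limma adjusted p of 0.0228 that was 0.0833, and no longer a call, with no filter on low values. *Dusp7*, a cytoplasmic ERK phosphatase like *Dusp6*, went from 12.9 ± 0.507 to 13.5 ± 1.17 RPKM (SD, n = 3) and was not called (log2 fold change 0.06, adjusted p = 0.375 by limma). *Dusp8* was below the filter, at a mean of 0.0136 RPKM in sh-NC against 1.10 ± 0.172 RPKM (SD, n = 3) after knockdown, and *Dusp9* and *Dusp26* were listed at 0 in all libraries.

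Among 18 other inhibitors of receptors, Ras and Raf, rises and falls were equal in number. Of the 16 that were tested, 7 rose, 7 fell and 2 were not called (median log2 fold change 0.03). *Spred3*, the remaining Spred gene, had the largest rise, from 0.265 ± 0.164 to 4.598 ± 0.263 RPKM (SD, n = 3; log2 fold change 2.15, adjusted p = 6.32e-09 by limma), and it passed the filter only through the sh-*Etv5* libraries. *Rasa3*, which encodes a Ras GTPase-activating protein, had the largest fall, from 16.9 ± 0.699 to 9.81 ± 0.870 RPKM (SD, n = 3; log2 fold change -0.73). *Nf1*, which encodes the neurofibromin that Spred proteins recruit, was at 2.17 ± 0.0817 and 2.50 ± 0.275 RPKM (SD, n = 3) and was not called (log2 fold change 0.14, adjusted p = 0.13 by limma). *Spry3* was not analysed here. Over all tested genes, 33.3% were called higher and 41.0% lower, with a median log2 fold change of -0.05.

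The kinases on which these inhibitors act moved in both directions. Of 22 genes of the cascade from adaptors and Ras to ERK, 19 were tested, with 11 higher, 4 lower and 4 not called. Their log2 fold changes ran from -0.58 to 1.06 with a median of 0.23. The adaptor gene *Gab2* rose most, from 4.38 ± 0.336 to 10.2 ± 0.548 RPKM (SD, n = 3), and the adaptor gene *Shc1* fell most, from 31.4 ± 0.585 to 20.6 ± 1.149 RPKM (SD, n = 3). *Mapk3*, which encodes an ERK kinase, rose from 45.0 ± 1.90 to 61.4 ± 2.72 RPKM (SD, n = 3; log2 fold change 0.44, adjusted p = 4.35e-06 by limma). Of 15 genes of the p38 and JNK branches, 11 were tested, with 2 higher, 6 lower and 3 not called (median -0.32). There, *Mapk11*, which encodes a p38 kinase, rose most (0.88), from a mean of 2.61 to 5.66 RPKM, and *Map3k1* fell most (-0.60). *Mapk14*, which encodes another p38 kinase and had the higher level, fell from 36.9 ± 0.893 to 24.4 ± 0.775 RPKM (SD, n = 3; log2 fold change -0.58). The phosphorylation of these kinases was not measured here. Beside both lists, 33.3% of all tested genes were called higher and 41.0% lower, with a median log2 fold change of -0.05.

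Known targets of ERK signaling made up a list of 15, chosen with earlier results of these data known, of which 14 were tested. Of these, 9 were higher, 4 were lower and 1 was not called, with a median log2 fold change of 0.79, beside 33.3% higher, 41.0% lower and a median of -0.05 over all tested genes, and 4 of the 14 passed the filter through 1 group only. *Phlda1* rose most (4.18) and *Egr2*, an early response transcription factor, fell most, from 3.15 ± 0.368 to 0.392 ± 0.153 RPKM (SD, n = 3; log2 fold change -1.58, adjusted p = 1.06e-07 by limma). *Egr2* passed the filter only through the sh-NC libraries, so its direction was set by the filter. *Egr1*, another early response gene, was at 19.4 ± 1.83 and 18.9 ± 0.832 RPKM (SD, n = 3) and was not called (adjusted p = 0.685 by limma). The *Etv5* relatives *Etv1* (0.90) and *Etv4* (1.01) rose, at 13.5 and 2.69 RPKM in sh-*Etv5* cells. *Etv4* passed the filter only through the sh-*Etv5* libraries, so its direction was also set by the filter.

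Upstream of the cascade, 3 of 10 growth factor ligands passed the filter, and the ligands below it were outside the test. Each of the 3 rose, beside 33.3% called higher and 41.0% called lower over all tested genes. *Csf2*, which encodes GM-CSF, had the largest rise, from 0.196 ± 0.0327 to 7.47 ± 0.881 RPKM (SD, n = 3; log2 fold change 2.82, adjusted p = 2.68e-10 by limma), and it passed the filter only through the sh-*Etv5* libraries. *Osm* (2.47) and *Pdgfb* (1.98) were the others. Of 14 receptors, 4 were tested, of which 2 were higher and 2 were lower. *Csf1r*, the receptor for M-CSF and the most abundant of the 4, fell from 428.5 ± 4.56 to 243.5 ± 6.72 RPKM (SD, n = 3; log2 fold change -0.81, adjusted p = 1.9e-09 by limma), and *Csf2ra*, a subunit of the GM-CSF receptor, rose from 16.3 ± 1.36 to 28.4 ± 0.590 RPKM (SD, n = 3; log2 fold change 0.77). *Csf2rb*, which encodes another subunit of that receptor, fell from 7.27 ± 0.0893 to 5.44 ± 0.529 RPKM (SD, n = 3; log2 fold change -0.36, adjusted p = 0.000522 by limma).

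**Figure D4:**
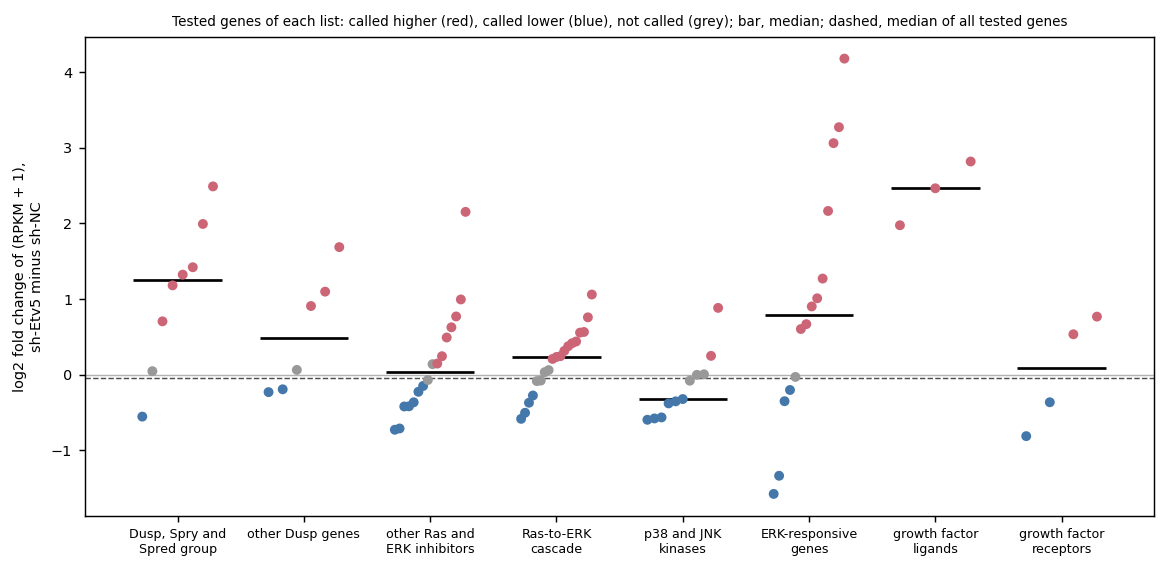
Log2 fold change between sh-*Etv5* and sh-NC (vertical axis) of each tested gene in the 8 lists (horizontal axis), called higher in red, called lower in blue and not called in grey, with the median of the list as a bar and that of all tested genes as a dashed line at -0.05. The p38 and JNK kinases have a median of -0.32 and the ERK-responsive genes one of 0.79, and the points of the latter spread from -1.58 to 4.18.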

How the data were processed

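The authors deposited RPKM values, 1 per gene symbol and library, which the column names tie to coverage tracks, and the submitters' processing notes name the build mm10. The aligner, the counter and the annotation are not given in the sources used here. RPKM is already scaled by gene length and mapped reads, so a few abundant genes that change can shift the others. In genes low in both libraries of a pair, at most 9.43% shared a common ratio, so whole reads and depth were not recovered.

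Here, log2(RPKM + 1) of the 10738 genes that reached an RPKM of 1 in 3 or more of the 6 libraries was compared between groups by limma 3.58.1 (R 4.3.3, eBayes with intensity trend, two-sided, no covariate), after a test on simulated data, and Benjamini-Hochberg adjusted p-values under 0.05 over all tested genes were called. Overlapping exons and shared 50-base sequences were read from GENCODE M21 (GRCm38) and upstream sequences from RefSeq, with Python 3.11.15 and pandas 2.3.3. The 10 genes and the pathway lists were chosen with earlier results of these data known. Beside the 10 genes and *Etv5*, the called genes with the largest rise and fall of each list and all tested genes of the other Dusp list were named, with the 3 genes nearest in pattern to the member with the largest rise and to that with the largest fall. *Mapk3*, *Mapk14*, *Nf1*, *Egr1*, *Etv1*, *Etv4*, *Osm*, *Pdgfb*, *Csf2rb*, *Ergic1*, *Dusp8*, *Dusp9*, *Dusp26* and the marker genes were named after their values were seen. Alternatives were other pseudocounts, filters and scalings, eBayes without trend, the replicate block and each library left out in turn. A rescaling by median ratios was added after the data were seen. 1 gene of the pathway lists is not reported here by name.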

Additional observations from a re-analysis of the deposited data

How the results depend on the processing

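The directions and calls of *Dusp1*, *Dusp2*, *Dusp4*, *Dusp5*, *Dusp6*, *Spry2* and *Spred1* held under each alternative of the fit, its filter or its scaling that could be run (15 for each, and 14 for *Spry2*, which has no value under a mean RPKM of at least 5). Leaving out each library in turn gave 6 to 7 genes called higher and 1 called lower each time among the 10, against 6 and 1, and 3358 to 3494 higher and 4140 to 4371 lower over all genes. The additional gene was *Spred2*, called without sh-*Etv5* replicate 3, and its log2 fold change ran from -0.031 to 0.14 over the libraries left out. With libraries rescaled to the same sum, *Spred2* was at -0.012 and remained uncalled. When an absolute log2 fold change over 1 was also required, 5 of the 10 genes were called higher, without *Spry2*, and 0 lower, without *Spred1*, and the counts over all genes were 669 higher and 322 lower. With the replicate number as a block, 6 of the 10 genes were higher and 1 was lower, and over all genes 3539 were higher and 4361 lower, so the block changed no call among the 10. Same-numbered libraries did not deviate together from their group means (correlations of 0.074, -0.071 and -0.035), and they share only a number. The scalings moved the median log2 fold change of all tested genes from -0.05 to between -0.10 (same sum) and 0.01 (median ratio). Depth is unknown, which limits *Spry1*, *Spry2* and *Spry4* most.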

Other observations

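Outside the 10 genes, the tested genes whose values over the 6 libraries were most like those of *Dusp5* were *Cpd*, *Tmx4* and *Rnf183*. Their Euclidean distances were 0.167, 0.181 and 0.184 between log2(RPKM + 1) values taken relative to the mean of the sh-NC libraries. *Cpd*, which encodes a carboxypeptidase, rose from 19.2 ± 0.0760 to 108.2 ± 5.12 RPKM (SD, n = 3), and *Rnf183*, which encodes a ubiquitin ligase, from 0.444 ± 0.0948 to 6.81 ± 0.766 RPKM. The genes most like *Spred1* were *Adam17*, *Gm6793* and *Aagab*, at distances of 0.0406, 0.0448 and 0.0474. *Adam17*, which encodes the protease that sheds tumor necrosis factor and ligands of the EGF receptor, had 49.1, 49.5 and 50.2 RPKM in control and 33.5, 33.0 and 32.9 RPKM in knockdown libraries. These distances describe likeness over 6 libraries in 2 groups and are set mostly by the difference between the groups.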
